A study of Mus musculus with 6 samples.

Results

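The genes described here make cholesterol and fatty acids or regulate their synthesis. They were chosen by symbol for their place in these pathways, as 31 of the 17348 genes in the deposited table: 7 enzymes of the mevalonate pathway, 11 enzymes of the steps from squalene to sterols, 6 regulators and 7 lipogenic enzymes. All 31 passed the filter on low counts, as did 13340 genes in all. In none of the 31 was a difference between Ybx1 cKO and WT cortex detected after adjustment over all genes. Nor was one detected in any of the 13340 genes, the targeted Ybx1 among them, so this outcome is not particular to the 31. The fold changes of the 31 were small, and 22 of 31 had a lower mean in the cKO. The largest difference in either direction was a lower Scd1 level, with a log2 fold change of -0.24.

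Bulk RNA sequencing was done on mouse embryonic cortex at E13.5, with 3 WT and 3 cKO libraries; the labels give the tissue as brain. The cKO embryos carried Nestin-Cre and 2 floxed Ybx1 alleles (Ybx1 fl/fl), so that deletion was directed to neural progenitors and the cells born from them, while cells outside the Nestin lineage kept the gene. The WT embryos are called controls by the study, and its breeding scheme uses floxed littermates without Cre as controls, so the floxed allele may be shared by both groups. Ybx1 encodes a DNA- and RNA-binding protein with a cold-shock domain. Whether embryos were pooled is not given in the sources used here, nor is which library belonged to which of the 3 sequencing batches that the series describes. The p-values measure the spread between these libraries only.

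Library totals were between 15907486 and 16282921 estimated counts, and CPM below are counts per 1e6 after scaling by TMM factors. The targeted gene was at 1021, 528 and 1220 CPM in the WT libraries and at 83.1, 117 and 147 CPM in the cKO libraries, each in replicate order as throughout, a log2 fold change of -3.00 (SE 0.33; edgeR adjusted p = 0.128). The groups did not overlap, but WT replicate 2 lay below the other WT libraries. Markers of radial glia summed to 1771 to 2627 CPM and those of cortical neurons to 4089 to 5231 CPM, so the labelled tissue carried its defining genes. cKO replicate 3 stood apart, with 250 CPM of 7 epidermal markers and 516 CPM of 7 meningeal and choroid plexus markers, against at most 1.37 and 15.2 CPM in the other 5 libraries. The 8 interneuron markers summed to 68.9 to 122 CPM in WT and 142 to 151 CPM in cKO. The part of these differences in the results below was not tested, and in bulk RNA fewer cells of a type and less RNA per cell cannot be told apart. Counts are therefore also given without WT replicate 2 and without cKO replicate 3.

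Cholesterol is built from acetyl-CoA: the mevalonate pathway makes isoprenoid units, which are joined into squalene, closed into lanosterol and trimmed to sterols. When sterols are scarce, SCAP carries the transcription factor SREBP2 from the endoplasmic reticulum to the Golgi for cleavage, and the released fragment binds sterol regulatory elements (SREs) in promoters of pathway genes. INSIG proteins hold SCAP back when sterols are plentiful, and SREBP1 acts mainly on fatty acid genes. The embryonic brain makes its own cholesterol, which dividing progenitors and growing axons use for membrane, and sterol is also attached to hedgehog ligands.

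The SRE is the sequence through which SREBPs are known to act on genes of these pathways, though such control was not tested here for any of the 31. Promoter windows are therefore shown for an enzyme with an exact match and for 4 members at 1 letter from it. RefSeq windows of GRCm38.p6, from 250 bases before to 50 bases after a start site of the gene, were at hand for 25 of the 31 genes. They were searched on both strands for the SRE letters TCACNCCAC, the NF-Y letters CCAAT and the Sp1 letters GGGCGG, none of which contains another. Each line gives 30 bases, 5′ to 3′ on the strand of the match, with the SRE match in capitals.
Hmgcs1: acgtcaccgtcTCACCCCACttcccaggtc
Srebf2: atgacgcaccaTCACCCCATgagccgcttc
Msmo1: gcacggaccaaTCACTGCACggcgaaggca
Cyp51: gccagctctgcTGACGCCACataggccgag
Nsdhl: agcacttaccaTCACCCAACggactctgcc
The Hmgcs1 window lies at chr13:119690203-119690232 on the plus strand, where the match is exact. The others differ from the SRE letters by 1 base: Srebf2 at chr15:82147096-82147125 (plus), Msmo1 at chr8:64733652-64733681 (minus), Cyp51 at chr5:4104787-4104816 (minus) and Nsdhl at chrX:72918305-72918334 (plus). A gene was counted if any of its windows held a match, and some genes had several (32851 windows in all). An exact SRE was in 1 of the 25 genes (4.0%) and in 1.44% of the 27025 genes with a window. With 1 letter allowed to differ, the counts were 12 of 25 (48.0%) and 26.7%. CCAAT was in 21 of 25 genes (84.0%, against 41.1% of all genes with a window) and GGGCGG in 20 of 25 (80.0%, against 38.2%). The 27025 genes with a window include genes not tested here, whereas all of the 31 passed the count filter. Shares among the tested genes alone were not computed. A match is a description of the letters and not evidence of binding.

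Levels are compared between genes in TPM, deposited values that take transcript length into account. The 31 genes together held 0.328% ± 0.0215 (SD, n = 3) of all TPM in WT and 0.312% ± 0.00334 (SD, n = 3) in cKO. WT means ran from 7.78 TPM for Scd1, at percentile 25.3 of the tested genes, to 546 TPM for Scd2, at percentile 98.3. After Scd2 came Acly at 308, Hmgcs1 at 293, Fdps at 238 and Acat2 at 225 TPM. Scd2 and Acly had SDs of 57.8 and 27.5 TPM over the WT libraries, so these 2 were apart, whereas Acly and Hmgcs1 were within their spread. The plot of TPM by gene shows that the spread between genes was far wider than any gap between genotypes.

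**Figure D1:**
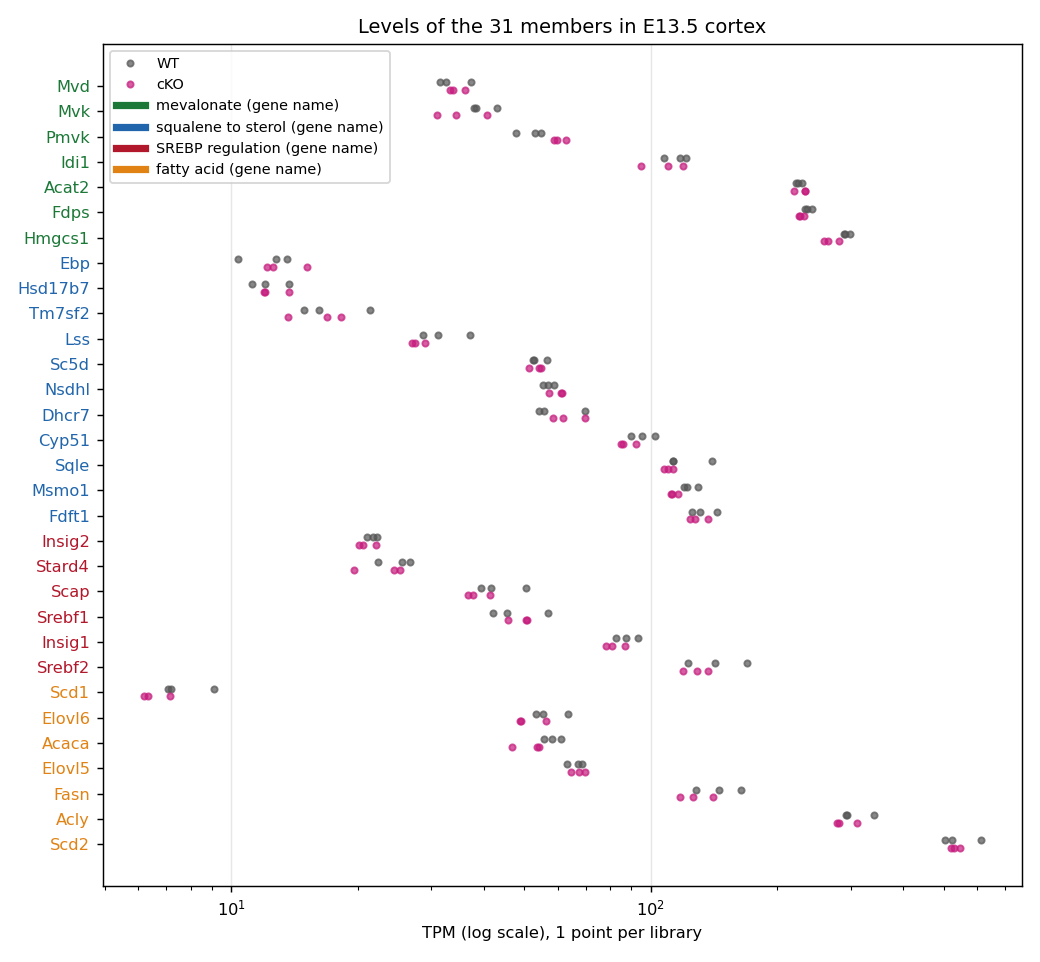
TPM on a log scale (horizontal) of each of the 31 genes (vertical, ordered by WT level within role), with 1 point per library, grey for WT and magenta for cKO, n = 3 each. Gene names are coloured by role; WT means span from 7.78 TPM for Scd1 to 546 TPM for Scd2, and within a gene WT and cKO points lie close together.

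In edgeR's quasi-likelihood test, with p-values adjusted by Benjamini-Hochberg over all tested genes, 0 of 31 genes were called at an adjusted p under 0.05, against a background of 0.0% of all tested genes lower and 0.0% higher. The smallest adjusted p over the 31 genes was 0.99995. At an unadjusted p under 0.05, 2 genes had a lower mean in the cKO (Lss and Scap) and 1 a higher mean (Pmvk), against 1.81% and 1.75% of all genes. DESeq2 and limma-voom also called 0 of the 31 at the adjusted threshold. The share of all genes that these methods called at that threshold is not given here, so their 0 cannot be read as particular to the 31. At the unadjusted threshold DESeq2 gave 1 lower (Lss) and 0 higher, against 1.44% and 1.11% of all genes. There limma-voom gave 1 lower (Lss) and 1 higher (Pmvk), against 1.82% and 1.52%. In edgeR the unadjusted count was 3 lower (Lss, Srebf2 and Scap) and 1 higher (Pmvk) without WT replicate 2 (1.60% and 1.44% of all genes), and 2 lower (Lss and Scd1) and 0 higher without cKO replicate 3 (1.40% and 1.03%). It was 0 lower and 0 higher without WT replicate 1 and likewise without WT replicate 3 (1.58% and 0.873% of all genes lower). The lower count was largest without cKO replicate 2, at 5 (1.81% of all genes), and with the replicate number as a block, at 7 (4.60%). The standard errors were a median of 0.081 on the log2 scale over the 31 genes and 0.114 over all genes. Each of the 31 had a 95% interval inside a 1.5-fold change in both directions, as did 78.2% of all genes tested.

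The median log2 fold change was -0.10 over the 31 genes, and 0.0019 over all genes. The share with a lower mean was 22 of 31 (71.0%), against 49.2% of all genes. On the CPM scale 9 of the 31 had all cKO libraries below all WT libraries (Hmgcs1, Sqle, Lss, Cyp51, Msmo1, Scap, Insig2, Scd1 and Elovl6) and 2 had all above (Pmvk and Nsdhl), where the background was 4.83% lower and 4.21% higher. On the TPM scale the counts were 4 lower (Hmgcs1, Fdps, Msmo1 and Acaca) and 1 higher (Pmvk), with a background of 3.95% and 4.62%. Hmgcs1, Msmo1 and Pmvk were therefore apart on both scales, and the others on 1 scale only. Without WT replicate 2 the CPM counts were 13 lower and 2 higher (background 8.96% and 9.61%), and without cKO replicate 3 they were 10 and 2 (7.79% and 7.81%). The backgrounds are larger there because fewer libraries separate more easily.

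The plot of fold changes orders the 31 genes by difference within each role and shows the intervals of most crossing 0.

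**Figure D2:**
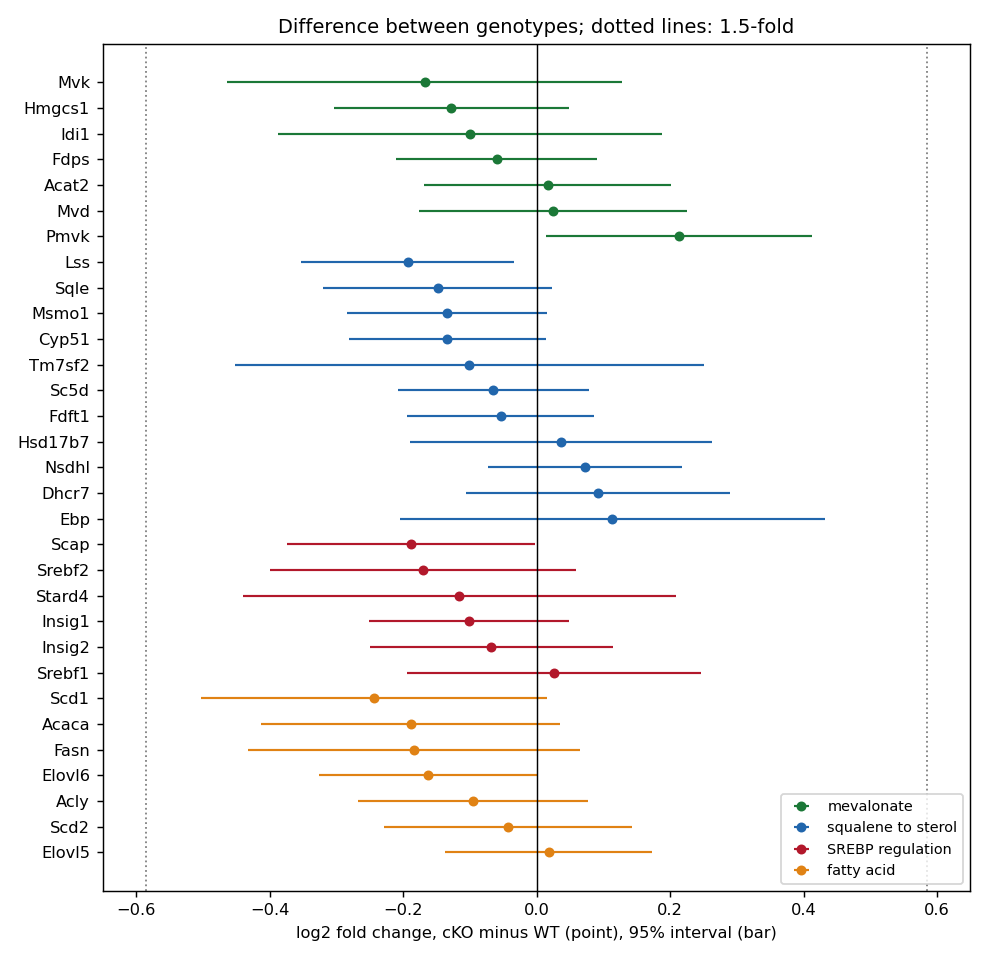
Log2 fold change of cKO over WT (horizontal) for each of the 31 genes (vertical, grouped by role), with points for the edgeR estimate and bars for its 95% interval, n = 3 libraries per genotype. Lss and Scap lie wholly below 0, Pmvk wholly above, and every bar stays within 1.5-fold.

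The mevalonate pathway turns acetyl-CoA into the isoprenoid units of sterols, and its 7 enzymes had a median log2 fold change of -0.060, with 4 of 7 lower; without cKO replicate 1 the median was 0.017. Hmgcs1 (Entrez 208715, chr13:119690351-119708260 in GRCm38.p6) makes HMG-CoA from acetyl-CoA units. It was at 437, 462 and 454 CPM in WT and at 384, 423 and 433 CPM in cKO. All cKO libraries were below all WT libraries, with cKO replicate 1 lowest. The log2 fold change was -0.13 (95% interval -0.30 to 0.049; edgeR unadjusted p = 0.133). This is the gene with the exact SRE match printed above.

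Pmvk (Entrez 68603, chr3:89454541-89469014) encodes phosphomevalonate kinase. It was at 22.5, 23.8 and 20.9 CPM in WT and at 26.1, 26.2 and 25.7 CPM in cKO, means of 22.4 ± 1.43 and 26.0 ± 0.245 (SD, n = 3). The cKO libraries were close together and all above WT. The log2 fold change was 0.21 (95% interval 0.014 to 0.41; edgeR unadjusted p = 0.0386, adjusted p = 0.99995), the highest of the 31 genes.

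The other 5 mevalonate enzymes overlapped between genotypes on the CPM scale. Mvk, the kinase one step before Pmvk, was at 28.0, 26.8 and 26.6 CPM in WT and 20.3, 28.6 and 23.5 CPM in cKO, so that cKO replicate 2 was the highest of all libraries and the others were below WT (log2 fold change -0.17). Idi1, which isomerises the isoprenoid unit, was at 126, 155 and 147 CPM in WT and at 112, 152 and 135 CPM in cKO. Replicate 1 was lowest in both genotypes for Idi1, and its log2 fold change of -0.10 became 0.017 without cKO replicate 1. Acat2, which joins acetyl-CoA units in the first step, Mvd, which makes the isoprenoid unit, and Fdps, which makes farnesyl diphosphate, had log2 fold changes of 0.017, 0.024 and -0.060. Fdps held 243, 233 and 236 TPM in WT and 226, 232 and 227 TPM in cKO, narrowly apart on that scale.

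Between squalene and sterols, 7 of 11 enzymes had a lower mean in the cKO, with a median log2 fold change of -0.065. Lss (Entrez 16987, chr10:76531565-76557139) closes the ring to lanosterol and had the smallest p of all 31 genes. It was at 94.7, 84.2 and 88.0 CPM in WT and at 74.9, 80.0 and 78.7 CPM in cKO, means of 89.0 ± 5.33 and 77.8 ± 2.65 (SD, n = 3). All cKO libraries were below all WT libraries, with cKO replicate 1 lowest and WT replicate 1 highest. The log2 fold change was -0.19 (95% interval -0.35 to -0.033; edgeR unadjusted p = 0.0237, adjusted p = 0.99995), a level of 87.5% of WT. In TPM the groups overlapped, since WT replicate 2 was at 28.7 and cKO replicate 2 at 29.0 TPM.

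Sqle makes squalene epoxide, a rate-limiting step of the later pathway. It was at 157, 138 and 135 CPM in WT and at 128, 130 and 129 CPM in cKO. The cKO libraries were almost level with one another, just below WT replicates 2 and 3, and WT replicate 1 stood higher (log2 fold change -0.15, edgeR unadjusted p = 0.0819). Cyp51, which removes the first methyl group from lanosterol, was at 189, 192 and 178 CPM in WT and at 172, 170 and 166 CPM in cKO, with no overlap (log2 fold change -0.13, edgeR unadjusted p = 0.0703).

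Msmo1 oxidises the remaining methyl groups and acts directly before Nsdhl in the same demethylation complex. Msmo1 was at 92.2, 94.6 and 91.3 CPM in WT and at 80.7, 89.6 and 83.1 CPM in cKO, with every cKO library lower (log2 fold change -0.13, edgeR unadjusted p = 0.0737). Nsdhl was at 51.5, 52.9 and 53.3 CPM in WT and at 54.7, 54.8 and 56.4 CPM in cKO, with every cKO library higher (log2 fold change 0.072, edgeR unadjusted p = 0.286). These neighbours in the pathway, both with a window printed above, thus lay on opposite sides of 0 on the CPM scale. The difference between them was not tested.

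Fdft1, which joins farnesyl units into squalene, was the highest of the 11 enzymes at 134 ± 9.65 TPM in WT. It was at 183, 175 and 179 CPM in WT and at 176, 171 and 170 CPM in cKO, and only cKO replicate 1 overlapped WT. The remaining 5 enzymes of these steps overlapped: Tm7sf2, a sterol reductase, Sc5d, a sterol desaturase, Hsd17b7, which completes removal of the methyl groups, Ebp, a sterol isomerase, and Dhcr7, which reduces 7-dehydrocholesterol to cholesterol. Their log2 fold changes lay between -0.10 for Tm7sf2 and 0.11 for Ebp. Ebp and Tm7sf2 were among the lowest genes, at 8.53 ± 1.06 and 9.95 ± 1.47 CPM in WT (SD, n = 3), and had the widest standard errors of these enzymes, 0.14 and 0.15.

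Of the 6 regulators, 5 had a lower mean in the cKO, with a median log2 fold change of -0.11. Scap (Entrez 235623, chr9:110333288-110384949), the escort of SREBPs, was at 90.1, 76.9 and 79.1 CPM in WT and at 74.9, 72.8 and 68.3 CPM in cKO, means of 82.0 ± 7.10 and 72.0 ± 3.37 (SD, n = 3). Every cKO library was below every WT library, with WT replicate 1 highest. The log2 fold change was -0.19 (95% interval -0.37 to -0.0019; edgeR unadjusted p = 0.0482, adjusted p = 0.99995), a level of 87.8% of WT. In TPM cKO replicate 1, at 41.5, lay above WT replicate 2, at 39.5.

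Srebf2, which encodes SREBP2, was at 351, 278 and 313 CPM in WT and at 287, 290 and 260 CPM in cKO. WT replicate 2 was below cKO replicates 1 and 2, so the groups overlapped (log2 fold change -0.17, 95% interval -0.40 to 0.059). Srebf1, which encodes SREBP1, was at 104, 83.6 and 88.4 CPM in WT and at 93.6, 99.8 and 87.2 CPM in cKO, with no order between the genotypes (log2 fold change 0.026). The ratio of Srebf2 to Srebf1 in TPM was 2.98, 2.93 and 3.13 in WT and 2.71, 2.56 and 2.62 in cKO. Those ratios did not overlap, with means of 3.02 ± 0.106 and 2.63 ± 0.0727 (SD, n = 3). An exact permutation test of 3 against 3 cannot give a p below 0.1, so that test could not call the difference in ratio, and no other test of it was run. The share of other gene pairs whose ratios are apart was not counted, so this separation has no background beside it.

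Insig1 and Insig2 encode the proteins that retain SCAP, and Insig1 is itself an SREBP target. Insig1 was at 99.8, 96.9 and 99.9 CPM in WT and at 87.8, 91.1 and 97.6 CPM in cKO, where cKO replicate 3 reached into the WT range (log2 fold change -0.10). Insig2 was at 26.2, 26.9 and 25.6 CPM in WT and at 25.3, 25.4 and 24.4 CPM in cKO, apart by less than 1 CPM at the edge (log2 fold change -0.068). The Insig1 to Insig2 ratio in TPM was 4.05 ± 0.207 in WT and 3.92 ± 0.282 in cKO (SD, n = 3), within the spread. Stard4, which carries cholesterol between membranes, was at 59.9 ± 7.89 CPM in WT and overlapped between genotypes (log2 fold change -0.12), with replicate 1 lowest in both, at 45.2 CPM in cKO.

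The 7 lipogenic enzymes had the lowest median of the roles, a log2 fold change of -0.16, with 6 of 7 lower. Acly makes cytosolic acetyl-CoA from citrate, Acaca carboxylates it to malonyl-CoA, and Fasn builds palmitate. Acly was at 635, 596 and 586 CPM in WT and at 587, 570 and 543 CPM in cKO, overlapping by less than 1 CPM (log2 fold change -0.096). Acaca was at 237, 246 and 267 CPM in WT and at 192, 239 and 227 CPM in cKO, with cKO replicate 1 well below the rest and cKO replicate 2 above WT replicate 1 (log2 fold change -0.19, edgeR unadjusted p = 0.0881). Fasn was at 676, 576 and 642 CPM in WT and at 529, 632 and 507 CPM in cKO, where cKO replicate 2 was within the WT range (log2 fold change -0.18, edgeR unadjusted p = 0.128).

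Scd1 and Scd2 encode stearoyl-CoA desaturases, which put a double bond into fatty acids. They are paralogs and neighbours on chromosome 19, at chr19:44394450-44407709 and chr19:44293676-44306864, and how reads that match both were divided between them was not tested. Scd1 was at 18.7, 15.9 and 15.9 CPM in WT and at 13.2, 13.9 and 15.4 CPM in cKO. The groups were apart by less than 1 CPM, and the log2 fold change of -0.24 (95% interval -0.50 to 0.015; edgeR unadjusted p = 0.0617) was the lowest of the 31 genes. Scd2 was at 1431, 1289 and 1308 CPM in WT and at 1293, 1343 and 1274 CPM in cKO, with WT replicate 1 above all others and the rest mixed (log2 fold change -0.043). The Scd2 to Scd1 ratio in TPM was 70.5 ± 2.75 in WT and 81.2 ± 7.45 in cKO (SD, n = 3), and cKO replicate 3, at 72.7, was level with WT replicate 3, at 72.5.

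Elovl6 and Elovl5 lengthen saturated and polyunsaturated fatty acids, respectively. Elovl6 was at 163, 149 and 152 CPM in WT and at 146, 137 and 132 CPM in cKO. Each cKO library was below each WT library (log2 fold change -0.16, 95% interval -0.33 to 0.00077; edgeR unadjusted p = 0.0509). Elovl5 was at 77.0, 83.2 and 76.5 CPM in WT and at 80.1, 83.1 and 76.5 CPM in cKO, with no order between the genotypes (log2 fold change 0.018). The Elovl5 to Elovl6 ratio in TPM was 1.16 ± 0.0935 in WT and 1.31 ± 0.0664 in cKO (SD, n = 3), and cKO replicate 1, at 1.24, lay below WT replicate 2, at 1.26.

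Libraries were also compared over the whole gene set, by the log2 deviation of each gene from its own mean over the 6 libraries. The median deviation of the 31 genes was 0.064, 0.023 and 0.025 in the WT libraries and -0.041, 0.0015 and -0.049 in the cKO libraries. By this median all cKO libraries were below all WT libraries, but cKO replicate 2 was close to WT replicates 2 and 3. In summed TPM of the 31 genes the genotypes overlapped, with WT replicate 2 at 3124.2 and cKO replicate 1 at 3152.5. Over all genes the medians were between -0.0092 and 0.0078. Of the 31 genes, 13 were at their lowest of the 6 libraries in cKO replicate 1 and 11 in cKO replicate 3, and 1 in cKO replicate 2. Of all 13340 genes, 2673 were lowest in cKO replicate 1, 2455 in cKO replicate 3 and 1974 in cKO replicate 2. WT replicate 1 was the highest library for 12 of the 31 and WT replicate 2 for 9, against 2601 and 2364 of all genes.

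**Figure D3:**
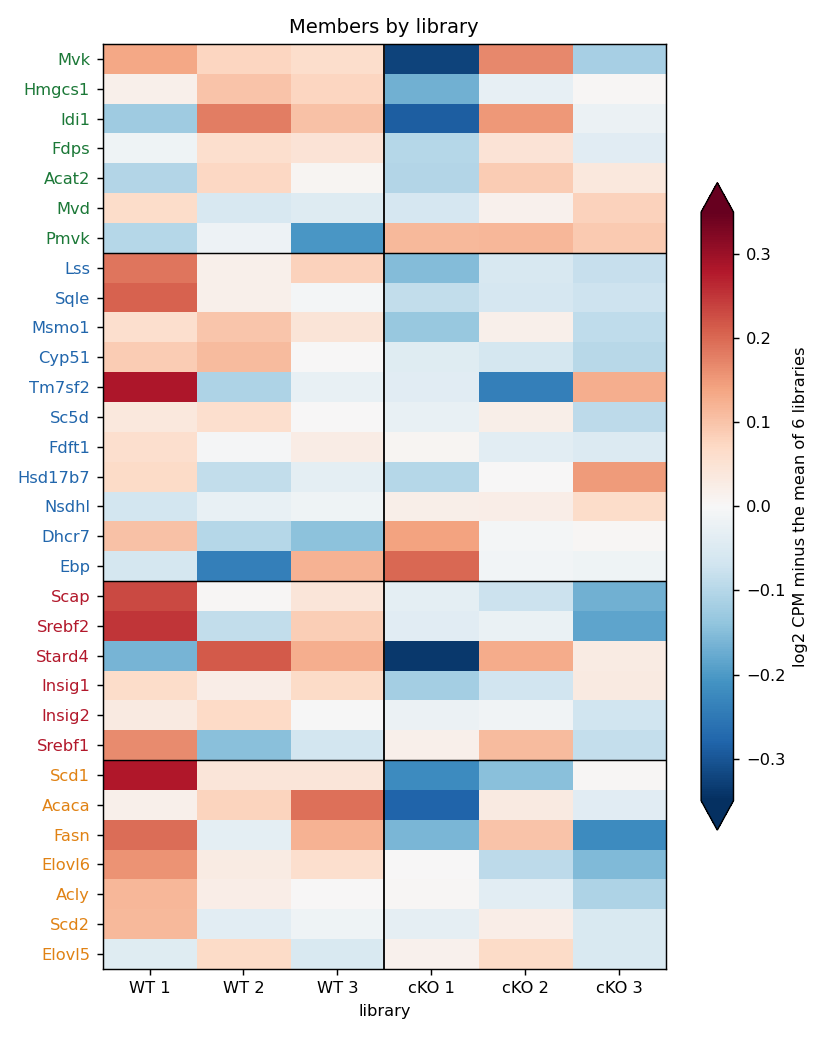
Log2 deviation of each gene from its own mean over the 6 libraries (colour, blue below and red above the mean), with genes in rows, in blocks from top to bottom of mevalonate, squalene to sterol, regulator and lipogenic genes, and libraries in columns. cKO replicates 1 and 3 hold most of the lowest values, 13 and 11 of 31, and cKO replicate 2 holds 1.

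Split by role, the genotypes were apart in 3 of 4 roles by these medians. How often other gene groups of such sizes are apart was not tested. In summed TPM the same 3 roles overlapped, with cKO replicate 1 above WT replicate 2. These libraries held 352 and 336 TPM for regulators, 711 and 684 for squalene to sterol, and 1162 and 1108 for lipogenic enzymes. The mevalonate enzymes were apart in summed TPM, with the lowest WT library at 987 and the highest cKO library at 983. For the 6 regulators the medians were 0.114, 0.013 and 0.055 in WT and -0.037, -0.019 and -0.076 in cKO, without overlap. For the 7 lipogenic enzymes they were 0.117, 0.029 and 0.042 in WT and -0.032, 0.023 and -0.053 in cKO, where cKO replicate 2 came near WT replicate 2. The 11 squalene-to-sterol enzymes were at 0.067, -0.0029 and 5.8e-05 in WT and -0.038, -0.010 and -0.049 in cKO, also without overlap but by less than 0.01. The mevalonate enzymes crossed over, at -0.016, 0.073 and 0.049 in WT and -0.102, 0.089 and 0.0039 in cKO. In both genotypes replicate 1 was lowest for them, and in replicate 1 of both genotypes the radial glial markers were also lowest, at 1808 and 1771 CPM; whether these go together was not tested.

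**Figure D4:**
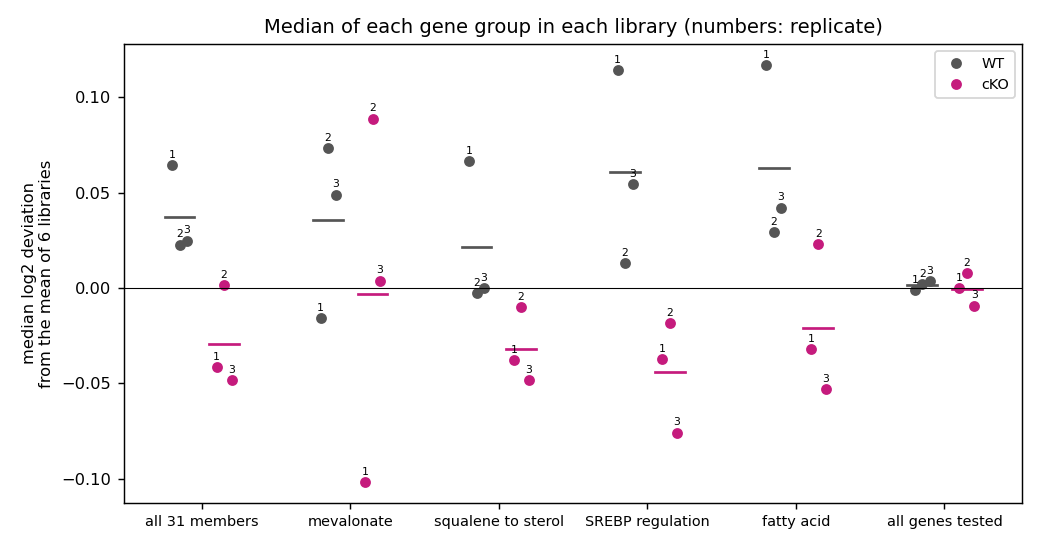
Median log2 deviation (vertical) of each role, of the 31 genes together and of all tested genes in each library (points, 3 WT and 3 cKO; numbers give the replicate; horizontal bars are means of 3 libraries). The cKO points lie below the WT points for the squalene-to-sterol enzymes, regulators and lipogenic enzymes and cross over for the mevalonate enzymes.

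Other genes of lipid metabolism were counted in 5 lists, of which 71 of 74 listed genes were tested. Their median log2 fold change was 0.032, with 28 lower and 43 higher means. At an unadjusted p under 0.05, 3 had a lower and 0 a higher mean in the cKO, against 1.81% and 1.75% of all genes. At the adjusted threshold 0 of 71 were called, against 0.0% of all genes in each direction. On the CPM scale 7 of the 71 were apart and lower and 3 apart and higher, where the background was 4.83% and 4.21% of all genes.

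By list, further sterol and isoprenoid synthesis had 4 of 8 genes lower and a median log2 fold change of 0.015. SREBP processing and sterol-regulated degradation had 6 of 9 lower and a median of -0.016, and its largest difference was in Marchf6, a ubiquitin ligase of the endoplasmic reticulum. Marchf6 was at 306, 269 and 280 CPM in WT and at 283, 264 and 225 CPM in cKO, overlapping, with cKO replicate 3 lowest (log2 fold change -0.15, edgeR unadjusted p = 0.178). Sterol uptake, transport and export had 8 of 16 lower and a median of 0.016. Its largest log2 fold change, 0.76 in Mylip, a ubiquitin ligase, came with 1 high library, cKO replicate 3: Mylip was at 2.14, 2.11 and 1.69 CPM in WT and at 2.37, 2.07 and 5.61 CPM in cKO.

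Further fatty acid synthesis had 8 of 23 genes lower and a median log2 fold change of 0.027. Elovl1, an elongase of very long chains, had its largest difference, at 10.4 to 12.2 CPM in WT and at 14.9, 11.2 and 15.2 CPM in cKO. cKO replicate 2 was within the WT range (log2 fold change 0.30, edgeR unadjusted p = 0.0699). Fatty acid oxidation had 2 of 15 genes lower and 13 higher, with a median of 0.11. Its largest difference was in Acadl, the long-chain acyl-CoA dehydrogenase, at 7.41, 8.06 and 10.1 CPM in WT and 9.48, 11.2 and 11.6 CPM in cKO, where WT replicate 3 lay above cKO replicate 1 (log2 fold change 0.34, edgeR unadjusted p = 0.0560). None of the 15 oxidation genes passed an unadjusted p of 0.05, and none was apart between genotypes.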

How the data were processed

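The authors sequenced embryonic cortex RNA as 3 WT and 3 cKO mRNA libraries. The authors deposited 1 table of 17348 genes. The deposited estimated counts were not normalised for depth (10.6 to 11.3% of values were not whole), and the deposited TPM values were scaled by the authors to transcript length and a fixed sum. The submitters' processing notes name HISAT2 2.2.1, Bowtie2 2.4.5, RSEM 1.3.1 and the mouse build GRCm38 (mm10), without roles or order. Gene annotation and whether counting used strand are not given in the sources used here. FPKM and group averages were not used. Columns named Ctrl were matched to samples titled WT with the same number.

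Estimated counts were rounded and fitted in edgeR 4.0.16 (R 4.3.3), with no term other than genotype: filterByExpr (minimum count 10, total 15), TMM factors (0.987 to 1.03), quasi-likelihood tests, Benjamini-Hochberg adjustment over 13340 genes at 0.05, two-sided. Intervals are 95% from the same fit. The script was tested on simulated data. Over the libraries 3 counts, the limit that a count of 0 allows, came to 0.184 to 0.189 CPM. Such limits and intervals cannot cover error outside these libraries. Alternatives used other factors, no filter, DESeq2 1.42.0, limma-voom and limma on log2(TPM + 1) (limma 3.58.1), the replicate number as a block, and libraries left out.

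The 31 genes were selected by symbol and the other lists by pathway, neither by a threshold on measured values, but both were chosen with earlier results of these data known. Values per library were given for genes with an unadjusted p under 0.05, no overlap, the highest TPM or smallest p in their role, or a paralog among the 31, and for further genes chosen after their values were seen. In the 5 other lists, genes with an unadjusted p under 0.05 or the largest log2 fold change were to be named; some items are not reported here. Coordinates and promoters are from RefSeq (GRCm38.p6).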

Additional observations from a re-analysis of the deposited data

How the results depend on the processing

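No gene of the 31 was called at an adjusted p under 0.05 in any of the 14 alternatives, and the lowest adjusted p was 0.538 (edgeR with a replicate block). The main fit called 0 of all 13340 tested genes, so its 0 is not particular to the 31. How many of all genes the alternatives called at that threshold is not given here. Over all alternatives the median log2 fold change of the 31 genes was -0.11 to -0.060, 20 to 25 had a lower mean, and 22 kept their sign (18 lower, 4 higher). Same-numbered WT and cKO libraries had correlations of deviations of 0.406, 0.31 and -0.02, and those with different numbers had -0.434 to 0.263. The highest values were thus those of replicates 1 and 2, but not of replicate 3. The labels do not say whether the numbers pair libraries, and these values do not settle it. The main fit had no replicate term. With the replicate block, 7 genes were lower at an unadjusted p under 0.05 (Hmgcs1, Lss, Cyp51, Msmo1, Scap, Acaca and Elovl6), where the main fit gave 2, and over all genes 614 were lower and 476 higher (main fit 242 and 234).

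The lower count at an unadjusted p was 1 with upper-quartile factors, DESeq2 and limma-voom, against 1.45%, 1.44% and 1.82% of all genes lower. It was also 1 with both WT replicate 2 and cKO replicate 3 left out (1.06%), and 0 with log2(TPM + 1) (1.26%). The higher count was 0 with DESeq2 (1.11% of all genes higher) and with both libraries left out (0.787%). With single libraries left out these counts were 0 to 5 lower (0 where WT replicate 1 or 3 was dropped, 5 where cKO replicate 2 was) and 0 to 1 higher. In those fits 0.873% to 3.57% of all genes were lower and 0.895% to 4.23% higher. Medians over such fits were -0.111 to -0.060 for the 31 genes, -0.10 to 0.017 for mevalonate (positive without cKO replicate 1), -0.081 to -0.034 for squalene to sterol, -0.15 to -0.062 for regulators and -0.19 to -0.11 for lipogenic genes.

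Chosen after seeing the data, counts of genes whose libraries did not overlap were 10 to 14 lower without single libraries (background 6.88% to 13.52%; 14 without cKO replicate 2, background 9.48%), 14 without both WT replicate 2 and cKO replicate 3 (13.0%), and 4 lower and 1 higher in TPM (3.95% and 4.62%), against 9 lower and 2 higher with all libraries in CPM (4.83% and 4.21%).

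Log2 fold changes that reversed when a library was left out ranged from -0.026 to 0.078 for Acat2, -0.011 to 0.068 for Mvd, -0.21 to 0.017 for Idi1, -0.20 to 0.030 for Tm7sf2, -0.033 to 0.10 for Hsd17b7, -0.038 to 0.12 for Srebf1, -0.21 to 0.018 for Stard4, -0.072 to 0.0092 for Scd2 and -0.012 to 0.058 for Elovl5. With both libraries left out Mvd was at -0.032, Hsd17b7 at -0.066, Tm7sf2 at -0.27 and Elovl5 at 0.089. The cause of these differences was not tested.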
